A study of Mus musculus with 6 samples.

Results

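The integrated stress response and the supply of amino acids were examined in the mouse uterus through 37 genes, taken by symbol from the 20637 genes listed for each library. The genes fall into 6 roles: 7 transcription factors, 5 kinase, phosphatase subunit and feedback proteins, 7 serine and one-carbon enzymes, 7 other amino acid and thiol enzymes, 8 amino acid transporters, and 3 secreted factors or receptors. Poly(A) RNA of the whole uterus was sequenced in 3 control libraries with the floxed Nat10 allele (f/f) and 3 libraries in which Nat10 was deleted (d/d), all from female mice killed on postnatal day 21. The NAT10 enzyme acetylates cytidines in RNA. The question was which uterine transcripts depend on it, asked by comparing the 2 groups. The Cre driver, the deleted exons and the cells that carry the deletion are not given in the sources used here. Nothing there says that the libraries of a group came from separate animals, so p-values measure only the spread between these libraries.

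In the integrated stress response, kinases that sense misfolded protein, missing amino acids, double-stranded RNA or haem shortage phosphorylate the initiation factor eIF2. General translation then slows, while the mRNA of the transcription factor ATF4 is translated more. ATF4 pairs with partners of the C/EBP family and binds C/EBP-ATF response elements at genes for amino acid synthesis, amino acid import and the one-carbon cycle, and at genes that feed back on the response. Several of these enzymes also serve dividing cells, which need serine-derived one-carbon units to make nucleotides.

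Promoter sequences are shown first, because the shared response element is what ties many of these genes to ATF4. Windows of 300 bases (250 before and 50 after the RefSeq transcription start; GRCm38.p6) were found for 31 of the 37 genes. The core TGATGNAA was searched on both strands, where the other strand reads TTNCATCA. It occurred in windows of 11 of these 31 genes (35.5%), against 1219 of 27025 genes with a window (4.51%). Because the element ties many of the chosen genes to ATF4, the choice itself favours a higher share, and no test was made. The match lay wholly upstream of that start in 9 of the 11, and these stretches are printed 5′ to 3′ on the strand of the gene with the match in capitals.
Asns, chr6:7693214-7693243, minus strand: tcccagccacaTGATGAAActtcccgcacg
Atf3, chr1:191183416-191183463, minus strand: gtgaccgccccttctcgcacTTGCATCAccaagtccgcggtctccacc
Chac1, chr2:119351029-119351076, plus strand: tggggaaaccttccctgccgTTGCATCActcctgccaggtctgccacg
Fgf21, chr7:45615602-45615649, minus strand: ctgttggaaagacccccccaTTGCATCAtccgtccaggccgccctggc
Got1, chr19:43524680-43524727, minus strand: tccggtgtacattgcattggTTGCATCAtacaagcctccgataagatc
Nupr1, chr7:126625562-126625591, minus strand: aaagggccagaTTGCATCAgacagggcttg
Pycr1, chr11:120643824-120643871, minus strand: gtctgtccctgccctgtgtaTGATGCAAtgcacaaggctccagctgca
Slc7a11, chr3:50443633-50443699, minus strand: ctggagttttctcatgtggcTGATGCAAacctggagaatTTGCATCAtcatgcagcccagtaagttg
Vldlr, chr19:27216809-27216838, plus strand: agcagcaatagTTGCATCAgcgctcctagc

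The starts are those of RefSeq. By the longer GENCODE M21 models, the stretches of 4 of the 9 genes (Asns, Atf3, Nupr1 and Vldlr) lie inside the gene, downstream of its outermost start. The first base of the match lay between 23 bases (Asns) and 200 bases (Vldlr) before the RefSeq start in these 9 genes. Slc7a11, the cystine importer, held the core on both strands, 66 and 47 bases before its start. In Slc1a4 the match spanned the start, and in Trib3 it lay after it. By role, the core was found in 2 of 7 transcription factors with a window, 1 of 4 kinase, phosphatase subunit and feedback genes, 4 of 6 other amino acid and thiol enzymes, 2 of 5 transporters and 2 of 3 secreted factors or receptors. None of the 6 serine and one-carbon enzymes with a window held it. A match describes the letters in the window and is no evidence of binding.

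Nat10, the targeted gene (ENSMUSG00000027185; chr2:103721256-103761270, mm10), had FPKM values of 13.2, 16.4 and 9.95 in f/f libraries and 5.57, 5.23 and 5.53 in d/d libraries. All d/d values lay below all f/f values. Its log2 change came to -1.11 (SE 0.17) with an adjusted p of 0.669 in limma over all genes, and the exact permutation test gave the smallest two-sided p that 3 against 3 allow, 0.1. Uterine genes were present in every library, with Hoxa10 between 116 and 151 and Esr1, the oestrogen receptor gene, between 83.9 and 134. Their levels were not all alike in the groups. Of 9 uterine identity genes, 8 had changes below 0 (median log2 change -0.09), where 5486 of 12640 genes tested had. Pgr was 60.3 to 73.8 in f/f and 25.4 to 35.3 in d/d (log2 change -1.06). Wnt7a, the 1 above 0, was 9.65 to 13.8 in f/f and 14.8 to 24.7 in d/d. Library sums ranged from 500764 to 549263, and read depth is unknown. Replicate 2 of d/d stood apart in a list of 24 proliferation genes, whose summed values were 294, 160 and 210 in f/f and 139, 677 and 96.1 in d/d replicates 1, 2 and 3, and results that rest on this library are given with and without it. Summed immediate early genes (14 genes) were 266 to 279 in f/f and 282, 239 and 390 in d/d, with d/d replicate 3 highest. Replicate 1 of f/f had the highest sum of 7 blood genes, 5582 against 709 to 2629 in the other libraries, and of 6 fat genes, 41.6 against 0.390 to 12.2. All 8 stroma genes and all 7 endothelium genes had changes below 0 (median log2 change -0.45 and -0.25), with sums of 3244 to 3707 in f/f and 2608 to 3561 in d/d for stroma and of 257 to 287 and 221 to 245 for endothelium. Without d/d replicate 2, 7 of the 8 stroma genes were below 0. Of 5 mesothelium genes 4 were below 0 (median -0.31; sums of 91.3 to 114.5 in f/f and 93.0 to 101 in d/d). Of 10 epithelium genes, 7 were above 0 (median 0.17; sums of 841 to 914 in f/f and 817 to 1104 in d/d). None of these 6 lists held a gene at 0 in all libraries, and the part of these cell types in the results was not tested. In whole tissue, fewer cells of a type and less RNA per cell cannot be told apart.

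Of the 37 genes, 34 passed the filter on low values (at least 1 in at least 3 libraries) and were tested among 12640 genes. None of the 34 passed an adjusted p of 0.05 in limma, and neither did any other gene (0% called), while 630 genes had an unadjusted p under 0.05. An unadjusted p under 0.05 was reached by 2 genes with higher values in d/d, Cebpg and Nupr1, or 5.88% of the 34 against 2.68% of all genes tested. There were 3 with lower values, Cbs, Stc2 and Slc6a9, or 8.82% against 2.3%. Values did not overlap between groups for 1 gene that was higher in d/d (2.94% against 6.12% of all genes) and 3 that were lower (8.82% against 4.6%). In either direction there were 4 of the 34 with all libraries (11.8% against 10.7% of all genes). Leaving out d/d replicate 1, 2 or 3 gave 5, 11 and 8 (14.7%, 32.4% and 23.5%, against 15%, 31.8% and 30.2% of all genes). Leaving out f/f replicate 1, 2 or 3 gave 5, 10 and 4 (14.7%, 29.4% and 11.8%, against 17%, 20.5% and 15.7%). The share of all genes was higher in each case than with all libraries, by an amount that differed with the library left out. The median log2 change was 0.02 over the 34 genes and 0.03 over all genes tested, and 21 of the 34 changes were above 0.

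**Figure D1:**
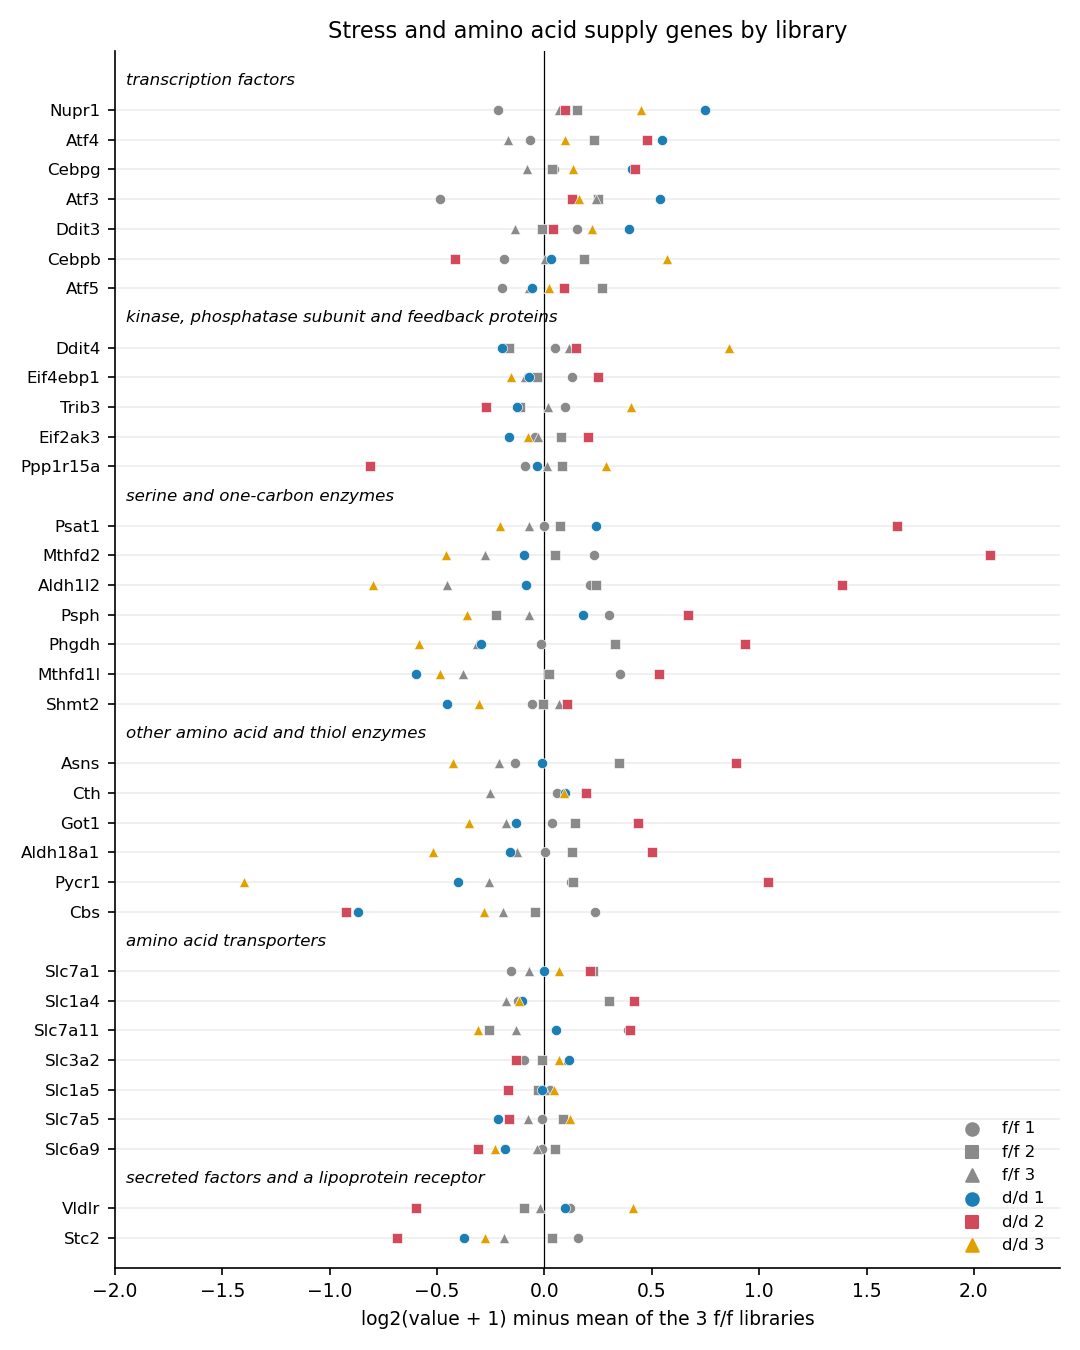
Each point is 1 library of 1 tested gene, placed by its log2(value + 1) minus the mean of the 3 f/f libraries (x axis, log2 units), with genes grouped by role. The serine and one-carbon enzymes are all highest in d/d replicate 2, whereas Cbs, Stc2 and Slc6a9 have all 3 d/d points left of the f/f points.

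Among the 7 transcription factors, changes lay between 0.02 (Atf5) and 0.43 (Nupr1) on the log2 scale, with a median of 0.28. All 7 were above 0, where 56.6% of all genes tested were. The 3 scalings moved the median of all genes tested from 0.03 to between -0.01 and 0.00, and Atf5 to between -0.04 and -0.01. Atf5 was also below 0 without d/d replicate 2 (-0.02; 6 of 7 above 0), f/f replicate 1 or f/f replicate 3, and with array quality weights. The sign of Cebpb turned without f/f replicate 1 or d/d replicate 3. Atf4 and Atf5 were the most abundant of the 37 genes.

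Atf4 (chr15:80255184-80257541), the factor that the response acts through, had values of 75.3, 92.8 and 70.1 in f/f and 115.5, 110 and 84.3 in d/d. Replicates 1 and 2 of d/d lay above every f/f library, while d/d replicate 3 lay below f/f replicate 2. On the log2 scale the change was 0.37 (SE 0.16; adjusted p from limma 0.922), and it stayed between 0.29 and 0.51 under all alternatives. ATF4 protein is governed mostly by translation, which RNA values do not show.

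Cebpg (chr7:35046422-35056573), which encodes a C/EBP partner of ATF4, had values of 15.1, 14.95 and 13.7 in f/f and 19.7, 19.9 and 16.1 in d/d. It was the 1 tested gene of the 37 with every d/d library above every f/f library. The mean was 14.6 ± 0.747 in f/f and 18.5 ± 2.14 in d/d (SD, n = 3), a log2 change of 0.32 (SE 0.12; adjusted p from limma 0.922).

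Nupr1 (chr7:126623249-126630861), a small stress-induced chromatin protein, had values of 16.8, 22.0 and 20.7 in f/f and 33.8, 21.1 and 27.3 in d/d. Replicates 1 and 3 of d/d were above all f/f libraries and replicate 2 was within them. The log2 change was 0.43 (SE 0.18; adjusted p from limma 0.922). It was 0.60 without d/d replicate 2 (limma adjusted p 0.184) and 0.27 without d/d replicate 1, its highest library. With array quality weights it was 0.72 and passed the threshold (adjusted p from limma 0.0436; alternatives span 0.0436 to 1). These weights were 3.74, 0.224 and 0.451 for d/d replicates 1, 2 and 3, so the weighted d/d mean rests mainly on replicate 1.

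Ddit3 (CHOP), a factor linked to cell death under lasting stress, had values of 31.3, 27.8 and 25.4 in f/f and 37.2, 28.9 and 32.9 in d/d. Replicates 1 and 3 of d/d lay above the f/f range and replicate 2 inside it (log2 change 0.22, SE 0.13; 0.13 without d/d replicate 1 and 0.31 without d/d replicate 2). Atf5, an ATF4-related factor, had values of 106, 147 and 115 in f/f and 117, 129 and 123 in d/d, all d/d libraries being inside the f/f range. Its exons overlap Nup62 and Il4i1 on the opposite strand, and since strandedness is not given its reads may be mixed with theirs. Atf3, a stress-induced repressor, ranged from 2.14 to 4.24 in f/f and from 3.82 to 5.40 in d/d. Cebpb ranged from 16.3 to 21.4 in f/f and from 13.8 to 28.3 in d/d, so that d/d libraries bounded it on both sides. Cebpb overlaps Tmem189 on the opposite strand.

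**Figure D2:**
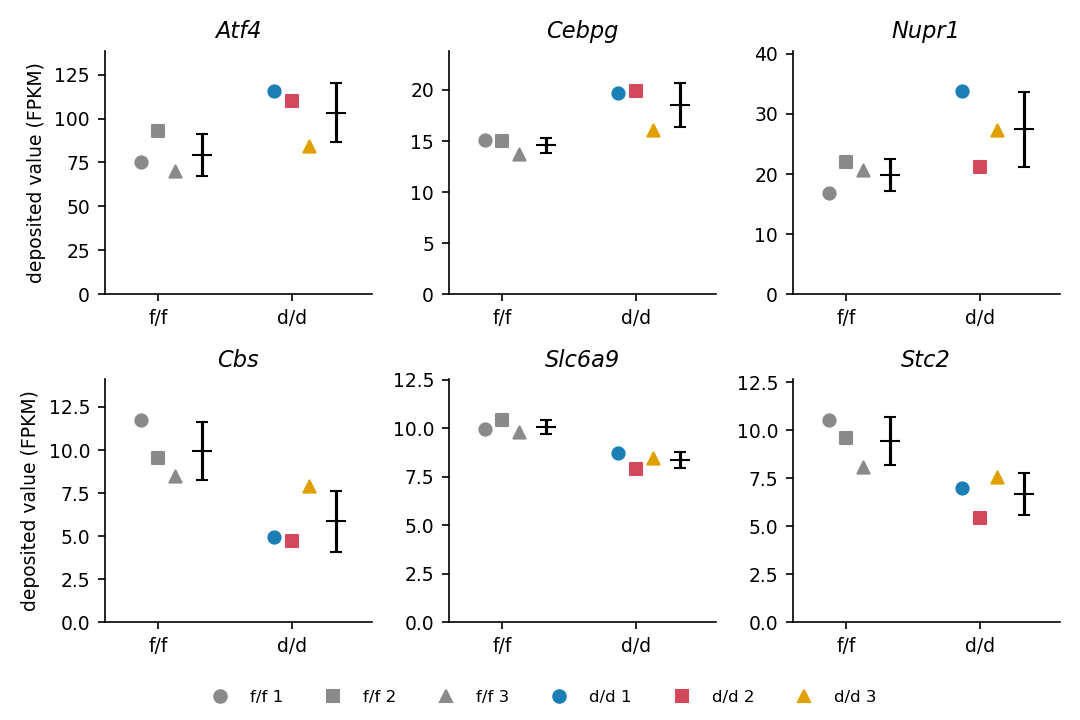
Deposited FPKM values (y axis, from 0) of 6 genes in the 3 f/f and 3 d/d libraries, 1 point per library, with the mean and SD beside each group. Cebpg is higher in every d/d library, Cbs, Slc6a9 and Stc2 are lower in every d/d library, and Atf4 and Nupr1 overlap between groups.

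The kinase, phosphatase subunit and feedback proteins showed no common direction, with a median log2 change of 0.00 and 0 of 5 genes at an unadjusted p under 0.05. Eif4ebp1, a translational repressor and the most abundant of them, had values of 46.8, 41.7 and 40.1 in f/f and 40.7, 51.1 and 38.3 in d/d. Only d/d replicate 2 lay above the f/f range and d/d replicate 3 lay just below it. Ddit4, an inhibitor of mTORC1 also known as REDD1, had values of 30.7, 26.3 and 32.2 in f/f and 25.7, 32.9 and 54.6 in d/d. Its log2 change of 0.27 (SE 0.25) rested on d/d replicate 3 and was -0.02 without it.

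Ppp1r15a (GADD34), the phosphatase subunit that reverses eIF2 phosphorylation, ranged from 10.04 to 11.4 in f/f and had values of 10.5, 5.70 and 13.4 in d/d. Here d/d replicate 2 was lowest of all libraries and replicate 3 highest. Its exons overlap Tulp2 on the opposite strand, which was at 0.341 or below in all libraries. Trib3, a pseudokinase that restrains ATF4, was low throughout, from 1.42 to 1.79 in f/f and from 1.17 to 2.45 in d/d. Eif2ak3 (PERK), the kinase of the endoplasmic reticulum, ranged from 7.65 to 8.42 in f/f and from 6.97 to 9.27 in d/d. Cebpb, Ddit4, Ppp1r15a and Trib3 were all highest in d/d replicate 3, the library with the highest summed immediate early genes, and 12 of 13 tested genes of that list were highest there too. The share of all genes tested that were highest in d/d replicate 3 was 22.1%, and 7 of the 34 genes (20.6%) were. These 7 include Slc1a5, Slc7a5 and Vldlr, while Atf3, Atf4, Ddit3, Nupr1 and Slc3a2 were highest in d/d replicate 1. The part of the immediate early genes in these values was not tested.

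The serine and one-carbon enzymes varied more among the d/d libraries than between the groups. All 7 were highest in d/d replicate 2, where 16 of the 34 genes (47.1%) and 30.1% of all genes tested were highest, and 5 of the 7 were lowest in d/d replicate 3. Their median relative to the f/f mean was 0.21, 0.05 and -0.28 log2 units in the f/f libraries and -0.10, 0.93 and -0.46 in d/d replicates 1, 2 and 3. None had an unadjusted p under 0.05.

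Phgdh, which encodes the first enzyme of serine synthesis, had values of 18.2, 23.4 and 14.6 in f/f and 14.8, 36.0 and 11.9 in d/d. Replicate 2 of d/d exceeded every f/f library, replicate 3 lay below them and replicate 1 lay within them. Its log2 change, 0.02 (SE 0.38), was -0.44 without d/d replicate 2. Several other annotated genes, among them Phgdh-ps1, match Phgdh over at least 300 bases at 95% identity or more, so its reads may be shared.

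Psat1, the second enzyme of the same pathway, had values of 15.8, 16.7 and 15.02 in f/f and 18.9, 51.4 and 13.6 in d/d. Its log2 change, 0.56 (SE 0.42; adjusted p from limma 0.926), was the highest of the 34 genes and was 0.02 without d/d replicate 2 and 0.94 without d/d replicate 3. In d/d replicate 2 Psat1 was 3.22 times the mean of the other 5 libraries. Psph, which completes serine synthesis, ranged from 4.21 to 6.49 in f/f and had values of 5.89, 8.69 and 3.73 in d/d.

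Mthfd2, the mitochondrial folate enzyme that is high in embryonic and dividing cells, had values of 3.36, 2.85 and 2.06 in f/f and 2.48, 14.7 and 1.71 in d/d. Its value in d/d replicate 2 was 5.89 times the mean of the other 5 libraries, the highest such ratio among the 34 genes. Its log2 change was 0.51 (SE 0.60) with all libraries and -0.28 without d/d replicate 2. Aldh1l2, which oxidises formyl-folate in mitochondria, had values of 2.34, 2.41 and 1.10 in f/f and 1.71, 6.52 and 0.654 in d/d, with the same library highest and d/d replicate 3 lowest. Mthfd1l, which releases formate from mitochondria, ranged from 3.57 to 6.59 in f/f and had values of 2.92, 7.59 and 3.23 in d/d.

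Shmt2, which splits serine into glycine and a one-carbon unit, had values of 22.1, 23.0 and 24.2 in f/f and 16.6, 24.9 and 18.5 in d/d. Replicates 1 and 3 of d/d lay below the f/f range and replicate 2 just above it. Its log2 change was -0.22 (SE 0.16), and -0.38 without d/d replicate 2 (limma adjusted p 0.229) and -0.10 without d/d replicate 1. Shmt2 and Aldh1l2 overlap Ndufa4l2 and D10Wsu102e, respectively, on the opposite strand, and these neighbours did not share the pattern. Ndufa4l2 ranged from 17.5 to 21.8 over the 6 libraries and D10Wsu102e from 18.9 to 22.5.

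Without d/d replicate 2, the median log2 change of the 7 enzymes was -0.38, against 0.16 with it. Of the 7, 6 were then below 0, where 5808 of 12640 genes tested were. Each of the 23 tested proliferation genes was also highest in d/d replicate 2, and 18 of them were lowest in d/d replicate 3. Without d/d replicate 2 all 23 were below 0 too, with a median log2 change of -1.06 against -0.12 with it, and 18 were lower without overlap, where 14.4% of all genes tested were. Tyms, the thymidylate synthase that spends one-carbon units, had values of 2.55, 17.3 and 3.23 in d/d replicates 1, 2 and 3 and ranged from 4.61 to 7.04 in f/f libraries. The part of proliferation in the enzyme values was not tested.

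**Figure D3:**
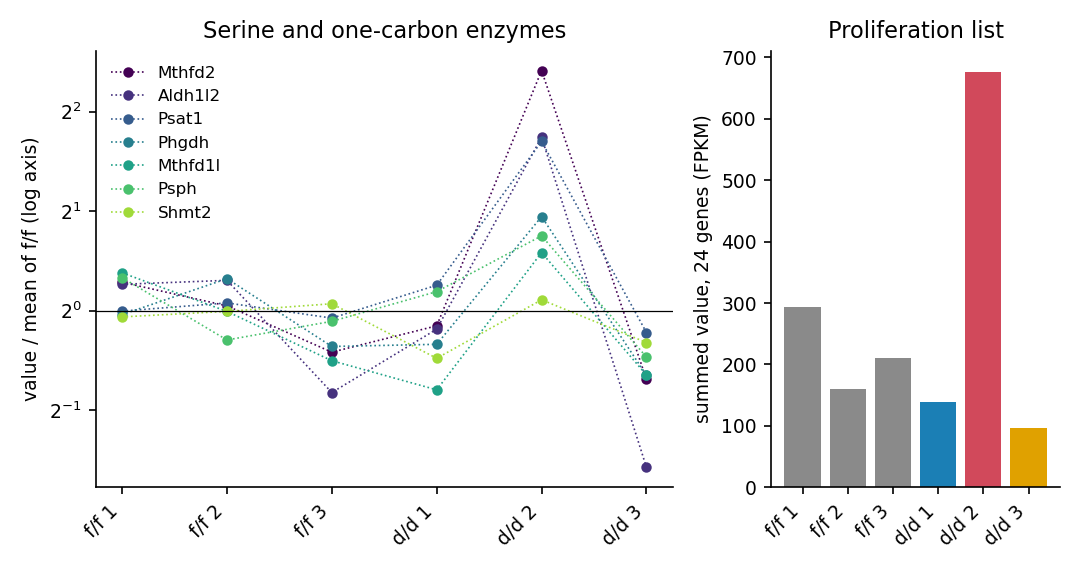
Left, the 7 serine and one-carbon enzymes in each library as the deposited value divided by the f/f mean (y axis, log scale; dotted lines only join the points of 1 gene). Right, the summed FPKM of 24 proliferation genes in the same libraries. Both are highest in d/d replicate 2.

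Of the 6 tested genes among the other amino acid and thiol enzymes, Cbs (chr17:31608894-31637238) had the largest log2 change. Cbs encodes cystathionine beta-synthase, which draws homocysteine into cysteine synthesis. It had values of 11.8, 9.53 and 8.51 in f/f and 4.94, 4.72 and 7.92 in d/d, so every d/d library lay below every f/f library, although d/d replicate 3 came close. The mean was 9.93 ± 1.67 in f/f and 5.86 ± 1.79 in d/d (SD, n = 3), or 59.0% of f/f. This is a log2 change of -0.69 (SE 0.20; adjusted p from limma 0.922). It lay between -0.90 and -0.57 under all alternatives, and was called only with array quality weights (-0.85; adjusted p from limma 0.0401; alternatives span 0.0401 to 1). Without f/f replicate 1, its highest library and the one with the highest blood and fat sums, it was -0.57. With the array weights Cbs and Nupr1 were the 2 of 34 genes called, where 2.5% of all genes tested were.

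Cth, the next enzyme of the cysteine pathway after Cbs, did not share that pattern, with 5.31, 5.93 and 4.09 in f/f and 5.47, 5.93 and 5.46 in d/d. Chac1, a glutathione-degrading enzyme and a sensitive target of ATF4, was too low to be tested. Its values were 0.177, 0.381 and 0.252 in f/f and 0.439, 0.829 and 0.477 in d/d, so all d/d libraries were above all f/f libraries, at levels below 1.

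Asns, asparagine synthetase and a standard readout of ATF4, had values of 7.16, 10.4 and 6.75 in f/f and 7.89, 15.6 and 5.66 in d/d. Only d/d replicate 2 exceeded the f/f range, and the log2 change was 0.15 (SE 0.33), or -0.22 without that library. The proline enzymes followed the same order of d/d libraries. Aldh18a1, which starts proline synthesis and was the most abundant gene of this role, had values of 20.5, 22.5 and 18.7 in f/f and 18.2, 29.4 and 14.0 in d/d. Pycr1, which ends it, had values of 4.71, 4.75 and 3.37 in f/f and 2.96, 9.76 and 0.983 in d/d, and its log2 change of -0.26 (SE 0.54) became -0.90 without d/d replicate 2. Got1, a cytosolic aminotransferase, ranged from 8.09 to 10.4 in f/f and from 7.06 to 12.9 in d/d.

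The 7 tested amino acid transporters had log2 changes between -0.24 (Slc6a9) and 0.09 (Slc7a1), with a median of 0.02. Slc1a5, a glutamine transporter and the most abundant, had values of 62.1, 59.7 and 61.2 in f/f and 60.5, 54.2 and 62.9 in d/d. Replicate 2 of d/d was the lowest library and d/d replicate 3 the highest, and the log2 change was -0.05 (SE 0.10). Slc3a2 and Slc7a5, the heavy and light chains of the leucine exchanger, had means of 48.5 ± 3.43 and 23.6 ± 1.41 in f/f and 49.2 ± 4.47 and 22.3 ± 2.99 in d/d (SD, n = 3). Both differences were smaller than the spread within groups.

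Slc7a11, the cystine importer with the paired motif shown above, had values of 4.24, 2.34 and 2.65 in f/f and 3.14, 4.27 and 2.23 in d/d. The groups covered almost the same range, and the log2 change was 0.05 (SE 0.24). An annotated Slc7a11 transcript also holds a stretch that matches the tubulin genes Tuba1a, Tuba1b and Tuba1c at 95% identity or more, so reads may be shared. Slc7a1, an arginine and lysine carrier, ranged from 9.50 to 12.7 in f/f and from 10.7 to 12.5 in d/d. Slc1a4, a serine and alanine carrier, ranged from 4.96 to 7.32 in f/f and from 5.23 to 8.02 in d/d. Slc7a3, another cationic carrier, stayed below 1 in all libraries and was not tested.

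Slc6a9 (chr4:117834506-117875198), the glycine transporter GlyT1, had values of 9.95, 10.4 and 9.79 in f/f and 8.73, 7.91 and 8.44 in d/d. Every d/d library lay below every f/f library, and the spread within each group was small. The mean was 10.1 ± 0.339 in f/f and 8.36 ± 0.417 in d/d (SD, n = 3), or 83.1% of f/f. The log2 change was -0.24 (SE 0.10; adjusted p from limma 0.922). Exons of Slc6a9 overlap Ccdc24 and B4galt2 on the opposite strand. Ccdc24 was also below every f/f library in d/d (3.19 to 4.16 against 2.62 to 3.12), so reads of the 2 genes may be mixed.

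Among the secreted factors, Stc2 (chr11:31357307-31370074), the glycoprotein stanniocalcin-2, had values of 10.6, 9.62 and 8.09 in f/f and 6.99, 5.44 and 7.56 in d/d. Every d/d library was below every f/f library. The mean was 9.42 ± 1.24 in f/f and 6.66 ± 1.10 in d/d (SD, n = 3), or 70.7% of f/f, and the log2 change was -0.45 (SE 0.15; adjusted p from limma 0.922). Its highest library was also f/f replicate 1, without which the change was -0.37. Fgf21, a secreted metabolic hormone, was listed at 0 in all f/f libraries and in d/d replicate 1, and at 0.173 and 0.418 in d/d replicates 2 and 3. Vldlr, a lipoprotein receptor that ATF4 can raise, had values of 44.7, 38.3 and 40.4 in f/f and 44.0, 26.8 and 54.9 in d/d. Replicates 2 and 3 of d/d lay on opposite sides of the f/f range, and the log2 change was -0.03 (SE 0.24). Replicate 2 of d/d was thus lowest for Cbs, Stc2, Slc6a9 and Vldlr and highest for the serine and proline enzymes.

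The changes of genes with and without the core in their promoter window are given as a description. The 9 tested genes with TGATGNAA in their window had a median log2 change of 0.05, with 6 above 0 and 3 below. The 20 with a window and no match had a median of 0.02, with 12 above 0 and 8 below. No test was made of this difference.

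When d/d replicate 2 was left out, values did not overlap for 3 higher genes (Cebpg, Ddit3 and Nupr1; 8.82% of the 34 against 17.4% of all genes tested) and 8 lower ones (23.5% against 14.4%). The 8 were Cbs, Stc2, Slc6a9, Shmt2, Mthfd1l, Aldh18a1, Pycr1 and Eif2ak3. None of the 34 passed an adjusted p of 0.05 in limma in this fit, where 0.0949% of all genes tested did. Their median log2 change was -0.07.

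**Figure D4:**
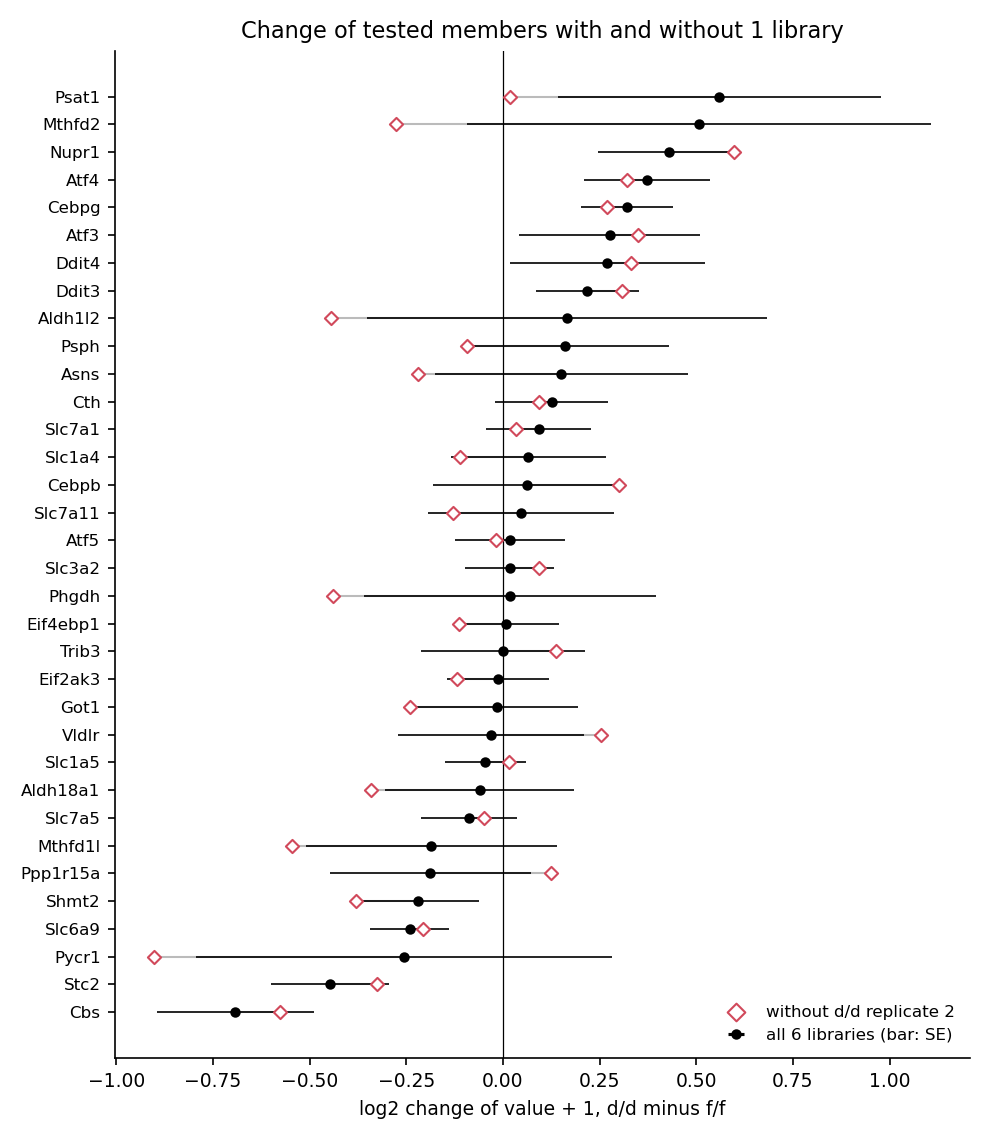
Log2 change of value + 1, d/d minus f/f (x axis), of the 34 tested genes with all 6 libraries (filled points; bars are the SE) and without d/d replicate 2 (open diamonds). Psat1, Mthfd2, Aldh1l2, Phgdh and Pycr1 move most when that library is left out, whereas Cbs, Stc2 and Slc6a9 stay below 0 and Cebpg, Atf4 and Nupr1 above it.

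Other genes of the pathway were read from 6 further lists that hold 90 genes, of which 87 were listed under those symbols and 82 were tested. None passed an adjusted p of 0.05 in limma. At an unadjusted p under 0.05, 2 were higher (2.44% of the 82, against 2.68% of all genes) and 2 lower in d/d (2.44% against 2.3%). Values did not overlap for 6 higher genes (7.32% against 6.12%) and 2 lower ones (2.44% against 4.6%). The median log2 change was 0.01.

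In the list of eIF2 kinases, eIF2 and eIF2B subunits and the phosphatase genes Ppp1r15b and Ppp1ca, 0 of 12 genes had an unadjusted p under 0.05. Eif2ak2, the kinase that senses double-stranded RNA, had the largest log2 change of the list, with 13.1, 19.7 and 26.8 in f/f and 49.2, 32.6 and 18.6 in d/d. Its groups overlapped, and the log2 change was 0.67 (SE 0.37; adjusted p from limma 0.922), from 0.35 to 1.03 when single libraries were left out. Eif2b1 was higher without overlap (16.7 to 19.8 in f/f, 19.9 to 20.5 in d/d). Among 14 tested further one-carbon and glycine cleavage genes, Amt, a subunit of the glycine cleavage system, was higher without overlap (6.80, 6.45 and 7.11 against 9.43, 7.33 and 8.91; log2 change 0.29, SE 0.13). In the same system Gldc was too low to be tested, at 0.237 to 0.610 in f/f and at 0.499, 0.521 and 2.34 in d/d.

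Of 13 tested further amino acid enzymes, Ass1, Prodh and Srr had an unadjusted p under 0.05. Ass1, which makes argininosuccinate for arginine synthesis, had values of 3.42, 3.79 and 2.399 in f/f and 4.81, 22.4 and 6.23 in d/d. Every d/d library exceeded every f/f library, and d/d replicate 2 was far above the others (log2 change 1.26, SE 0.48; adjusted p from limma 0.922; 0.64, SE 0.19, without that library). Prodh, which breaks down proline, had values of 8.63, 6.40 and 7.56 in f/f and 9.43, 9.14 and 10.7 in d/d (log2 change 0.34, SE 0.13). Srr, serine racemase, had values of 10.9, 10.8 and 10.1 in f/f and 9.71, 7.37 and 8.46 in d/d (log2 change -0.30, SE 0.12).

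In the 15 tested further transporters and the 15 tested genes of amino acid sensing by mTORC1, none had an unadjusted p under 0.05. Slc38a2, a glutamine and alanine carrier, was higher without overlap (58.4 to 62.7 against 63.2 to 70.1), as was Rragc, a Rag GTPase (31.1 to 35.0 against 35.7 to 36.96). Sesn2, a leucine sensor that both ATF4 and p53 induce, had values of 4.30, 3.83 and 4.49 in f/f and 4.49, 12.7 and 6.51 in d/d. Its highest value was in d/d replicate 2, where the summed values of 17 p53 target genes were also highest (285 to 317 in f/f; 412, 778 and 426 in d/d). Sesn2 is 1 of those 17, and the part of p53 in its value was not tested. Sesn3, of the same family, lay the other way, with 26.2, 20.8 and 24.7 in f/f and 10.1, 20.7 and 21.4 in d/d. Its log2 change was -0.50 (SE 0.27; adjusted p from limma 0.922), and -0.17 without d/d replicate 1. With array quality weights, which rest mainly on that library, it was -1.03 (adjusted p from limma 0.0466), the 1 call among the 82 further genes (2.5% of all genes tested were called).

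Of 13 tested further stress response genes, Ern1, the sensor that splices Xbp1, was lower without overlap, with 7.65, 7.37 and 9.22 in f/f and 4.83, 5.46 and 7.29 in d/d (log2 change -0.42, SE 0.16; adjusted p from limma 0.922). Gdf15, a secreted factor of the stress response and of p53, was too low to be tested, at 0.260, 0.341 and 0.240 in f/f and 0.350, 2.72 and 0.830 in d/d.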

How the data were processed

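Poly(A) RNA from the whole uterus was measured in 3 f/f and 3 d/d libraries, grouped by their titles. The authors deposited 1 table per library with an FPKM-type value per gene. This unit is inferred from the values and from Cufflinks 2.2.1, which is named with HISAT2 2.2.1 and mm10 per the submitters' processing notes. Annotation, gene filter and strandedness are not given in the sources used here. Depth is unknown, so no counting intervals are given. Values were analysed as log2(value + 1), which understates changes of low genes, and the 12640 genes that reached 1 in 3 or more libraries entered limma 3.58.1 (R 4.3.3; eBayes with a trend, group as the only term, two-sided, Benjamini-Hochberg over all genes tested). The same fit was tested on simulated data for this comparison (12640 genes, 200 changed in each of 20 simulations): 96.9% of genes changed by 1.5 log2 units were called and 9.55% of those changed by 0.5, and 5.84% of called genes were false. The simulation holds no library that stands apart, and the real fit called less: Cdkn1a, with a log2 change of 3.11 (SE 0.44), had an adjusted p of 0.669 in limma. No 2 libraries held identical values. Gene positions and overlaps come from GENCODE M21 (GRCm38, the same build as mm10), near-identical copies from alignment of its transcripts (at least 300 bases at 95% identity), and promoters from RefSeq GRCm38.p6. Python 3.11.15 and pandas 2.3.3 joined the tables.

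The genes, their roles, the further lists and the alternatives were chosen with earlier results of these data known, so no p adjusted over the genes alone and no set test is given. Of the 37 genes, those are given library by library where their groups do not overlap, their unadjusted p is under 0.05, or they are the most abundant or most changed of their role, and always for Atf4, Ddit3, Asns, Phgdh and Slc7a11. Of the further genes, those without overlap or with an unadjusted p under 0.05 are named. The others given by library, among them Mthfd2, Aldh1l2, Shmt2, Pycr1, Cth, Chac1, Eif2ak2, Sesn2 and Sesn3, were chosen after their values were seen. Alternatives were 3 scalings, a pseudocount of 0.1, 2 other filters, no trend, array quality weights, a term for the replicate number, and the omission of each library in turn.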

Additional observations from a re-analysis of the deposited data

How the results depend on the processing

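Of the 9 alternatives that keep all libraries, only array quality weights called any gene, namely 316 genes, 2 of the 34 (Cbs and Nupr1) and Nat10 (log2 change -1.09, limma adjusted p 0.0386). At an unadjusted p under 0.05 there were 5 of the 34 genes (14.7%, against 4.98% of all genes tested), 10 with these weights (29.4% against 29.5%) and 3 without a trend (8.82% against 4.94%). Leaving out 1 library gave between 0 and 12 called genes, the 12 without d/d replicate 2, and none of the 34 in any case. At an unadjusted p under 0.05 it gave 1 of the 34 without f/f replicate 1 (2.94% against 2.84% of all genes). It gave 8 without d/d replicate 2 (23.5% against 13.7%) and 5 without d/d replicate 3 (14.7% against 11.1%). It gave 2 (5.88%) without f/f replicate 2, f/f replicate 3 or d/d replicate 1, against 3.73%, 2.79% and 2.78% of all genes. Genes without overlap numbered between 4 (11.8% against 15.7%, without f/f replicate 3) and 11 (32.4% against 31.8%, without d/d replicate 2). The 34 genes' median log2 change lay between -0.07 and 0.12. The sign was the same under all 15 alternatives for 13 of the 34 genes, among them Atf4, Cebpg, Nupr1, Cbs, Stc2 and Slc6a9. The 3 scalings moved the median of all genes from 0.03 to between -0.01 and 0.00, and the signs that turned with them were of changes between 0.00 and 0.02. Median centring shifts all genes alike, by enough to turn changes that small. Quantile normalization moved genes by unlike amounts (Atf5 from 0.018 to -0.042, Trib3 from 0.0005 to 0.015). The sign turned with quantile normalization for Atf5 (-0.042), Eif4ebp1 (-0.038), Phgdh (-0.025) and Slc3a2 (-0.029), with median centring for Atf5 (-0.010), Trib3 (-0.028), Eif4ebp1 (-0.020), Phgdh (-0.011) and Slc3a2 (-0.011), with upper-quartile scaling for Atf5 (-0.023), Trib3 (-0.025), Eif4ebp1 (-0.032), Phgdh (-0.022) and Slc3a2 (-0.023) and with a pseudocount of 0.1 for Trib3 (-0.019). With array quality weights it turned for Atf5 (-0.0058), Trib3 (-0.099), Eif4ebp1 (-0.084), Ddit4 (-0.081), Phgdh (-0.26), Mthfd2 (-0.061), Aldh1l2 (-0.12), Slc7a11 (-0.036), Slc1a4 (-0.055) and Vldlr (0.072). Leaving out single libraries turned it for 21 genes, over these ranges: Atf5 (-0.081 to 0.15), Cebpb (-0.19 to 0.30), Got1 (-0.24 to 0.15), Slc3a2 (-0.032 to 0.092), Vldlr (-0.25 to 0.25), Eif2ak3 (-0.12 to 0.063), Trib3 (-0.20 to 0.14), Eif4ebp1 (-0.11 to 0.090), Aldh18a1 (-0.34 to 0.17), Slc7a11 (-0.13 to 0.24), Phgdh (-0.44 to 0.32), Aldh1l2 (-0.44 to 0.65), Slc1a4 (-0.11 to 0.22), Mthfd1l (-0.54 to 0.022), Ppp1r15a (-0.42 to 0.13), Psph (-0.092 to 0.42), Mthfd2 (-0.28 to 0.99), Asns (-0.22 to 0.44), Slc1a5 (-0.090 to 0.016), Ddit4 (-0.025 to 0.50) and Pycr1 (-0.90 to 0.32). Beyond median centring, the cause was not tested. The replicate block called 0 genes (726 at an unadjusted p under 0.05) and changed no call. The labels do not say whether the replicate numbers pair the samples. The deviations of same-numbered libraries from their group means correlated at -0.341, -0.029 and 0.10 across genes. With 3 libraries per group the deviations in a group depend on each other, so these values cannot exclude a pairing. Unknown depth limits what can be said of Chac1, Fgf21, Slc7a3, Gldc and Gdf15, whose values are mostly below 1.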
